A study of Mus musculus with 2031 samples.

Results

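The cytosolic ribosome is built from a small and a large subunit, each an rRNA scaffold that carries a set of mostly small, basic proteins, nearly all at one copy per subunit. Their genes, the *Rps* genes of the small and the *Rpl* genes of the large subunit, are expressed in every cell that makes protein, and their mRNAs are known for a run of pyrimidines at the 5′ end through which nutrient signals set their translation. Astrocytes translate in the soma and in fine processes, and the level of these mRNAs is often read as a measure of a cell's investment in protein synthesis. The genes described here were chosen by name: every symbol made of *Rpl* or *Rps*, a number and at most one of the letters a, x or l, together with *Rplp0*, *Rplp1*, *Rplp2* and *Rpsa*, with numbered pseudogenes left out. This gave 82 of the 49568 gene symbols in the count table, 50 of the large and 32 of the small subunit. Of these, 80 were annotated as protein coding and 2, *Rps4l* and *Rpl6l*, as pseudogenes. No expression value entered the choice.

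The cells were single ACSA-2-positive, O1-negative, 7-AAD-negative cells sorted from the cortex or the hippocampus of wild-type C57BL/6J mice at postnatal day 56 and sequenced as full-length Smart-seq2 libraries. No group carried a transgene or received a treatment. Each area was represented by 2 cell suspensions, Cortex 1, Cortex 2, Hippocampus 1 and Hippocampus 2. A cortical suspension came from a single animal and a hippocampal suspension from pooled littermates of another litter, so that area cannot be told apart from litter and pooling. The suspension was the replicate in every comparison, and cells were not. Of 2031 cells, 2030 had a file, with between 600758 and 3238215 gene counts each (median 1458410). The authors' list gave a type to 1982 of these cells, 1781 of them astrocytes in the subtypes AST1 (657 cells), AST2 (555), AST3 (452), AST4 (91) and AST5 (26). The others were mural (the largest of these groups), endothelial (30 cells), neuronal (17), microglial (11) and oligodendrocytic (9) cells.

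The types held their defining markers, but some also held markers of other types. Levels are given as CPM, a gene's counts in the summed cells of a type and suspension scaled to a common total of gene counts. Astrocyte markers summed to between 36014 and 44749 CPM in AST1, AST2 and AST3, to 29284 and 31564 CPM in the 2 AST4 sums, and to at most 3485 CPM in mural cells. The microglial cells of Cortex 2 held 7329 CPM of astrocyte markers against 542 and 395 CPM in the other microglial sums. Endothelial cells held 17013, 27291, 10912 and 18177 CPM of mural markers in Cortex 1, Cortex 2, Hippocampus 1 and Hippocampus 2. Their endothelial markers summed to 16179, 17085, 20308 and 14511 CPM, above the mural ones in Hippocampus 1 only. The part of mural transcripts in the endothelial values was not tested. Neuronal sums had counts for 4 of the 5 neuronal markers. The AST5 sum of Cortex 1 held 1036 CPM of oligodendrocyte markers against 62.9 and 0.23 CPM in the other AST5 sums and at most 140.3 CPM in AST1 to AST4. It had the lowest ribosomal protein share of these 3 sums, 0.605% against 0.793% and 0.913% of gene counts. All 26 AST5 cells had under 5% of their reads outside exons (median 1.59%), where the median of AST1 cells was 12.8%, so AST5 values moved with this library property, whose part in them was not tested. The subtypes were found by the authors on these same counts, from a set of highly variable genes. Whether that set held ribosomal protein genes was not checked. P-values between subtypes therefore describe the clustering as well as the cells.

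A promoter window was found for 60 of the 82 genes in RefSeq (build GRCm38.p6). A C followed by at least 4 pyrimidines (C or T), read on the transcribed strand and beginning within 5 bases of the annotated start, was present in 27 of these 60 genes and in 18.3% of all 32851 promoters. The 30-base windows below have the annotated start in the middle, and capitals mark the tract. They are shown because the tract is the feature these mRNAs are known for, and it was found at the RefSeq start of some of the genes described below and not of others. The first 4 are genes with a tract, among them *Rps9* and *Rps27* with high levels per length and *Rpl35* with a low one, and the last 3 have no such match at the RefSeq start. For *Rpl4* this depends on the annotation, since its GENCODE gene start lies upstream in the same window, at a C followed by a run of pyrimidines.
Rps9, chr7:3704026-3704055, plus strand: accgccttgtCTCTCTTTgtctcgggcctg
Rps27, chr3:90213634-90213663, minus strand: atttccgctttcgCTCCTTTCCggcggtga
Rplp2, chr7:141447636-141447665, plus strand: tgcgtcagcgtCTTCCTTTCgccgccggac
Rpl35, chr2:39005117-39005146, minus strand: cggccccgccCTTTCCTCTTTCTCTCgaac
Rpl4, chr9:64173372-64173401, plus strand: ttccttttcctgtgggagcagccgggtaga
Rps19, chr7:24884577-24884606, plus strand: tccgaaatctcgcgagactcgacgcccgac
Rpsa, chr9:120127751-120127780, plus strand: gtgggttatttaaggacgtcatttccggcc
A match describes letters near an annotated start, and a gene without one may start elsewhere. Over the whole promoter window, from 250 bases before to 50 after the start and on both strands, the core letters of an ETS site, CCGGAA, were found in 30 of the 60 genes and in 14.9% of all promoters. The TATA box letters TATAAA were found in 8.33% and 13.6%, and AAGATGGC, the core of the YY1 motif, in 6.67% and 2.75%.

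Counts of ribosomal protein genes made up well under 1% of the gene counts of AST1, AST2 and AST3 cells. This is a share of uniquely mapped reads without correction for transcript length, and not a share of mRNA molecules. The share of the 82 genes in a cell's gene counts, taken as the median over the cells of a type in a suspension, was 0.418% ± 0.0277 in AST1, 0.371% ± 0.0407 in AST2 and 0.380% ± 0.0476 in AST3 (mean ± SD, n = 4 suspensions each). These 3 subtypes overlapped: the medians in Cortex 1, Cortex 2, Hippocampus 1 and Hippocampus 2 were 0.455%, 0.394%, 0.423% and 0.401% in AST1, and 0.423%, 0.370%, 0.365% and 0.324% in AST2. In AST3 they were 0.442%, 0.391%, 0.355% and 0.333%. All 1664 cells of the 3 subtypes gave 0.400% ± 0.0242 (n = 4).

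AST4 was the astrocyte subtype with the highest share. It reached 1.01% in Hippocampus 1 (41 cells) and 0.925% in Hippocampus 2 (48 cells), a mean of 0.967% ± 0.0597 (n = 2) and 2.42 times the share of AST1 to AST3. Both values lay above every suspension median of AST1, AST2, AST3 and mural cells. Cortex 1 had 2 AST4 cells, with a median of 1.55%, and these entered no mean. Of the 91 AST4 cells, 75 (82.4%) lay above 0.635%, the 95th percentile of AST1 to AST3 cells, and 1 lay below their median. AST5 had 0.605% in Cortex 1, 0.793% in Cortex 2 and 0.913% in Hippocampus 1, a mean of 0.770% ± 0.155 (n = 3). Its lowest suspension lay above every median of AST1 to AST3, but its range overlapped that of mural cells. The 2 AST5 cells of Hippocampus 2 had a median of 0.526% and entered no mean.

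The other brain cells in the sort all lay above AST1 to AST3. Neuronal cells had the highest share, 1.65% and 1.83% in the hippocampal suspensions (1.74% ± 0.126, n = 2). Endothelial cells followed with 1.38%, 1.47%, 1.50% and 1.21% (1.39% ± 0.129, n = 4), and all 30 endothelial and all 17 neuronal cells were above the 95th percentile of AST1 to AST3. Microglial cells had 1.70%, 1.65% and 0.623% from 3 cells each (1.33% ± 0.609, n = 3), a spread that reached from mural cells to neurons. Mural cells, the pericytes and smooth muscle cells of brain vessels, had 0.666%, 0.580%, 0.811% and 0.725% (0.695% ± 0.0974, n = 4). Oligodendrocytic cells had 0.715% and 0.669% (0.692% ± 0.0324, n = 2). In the order of means, AST2, AST3 and AST1 overlapped, as did oligodendrocytic cells, mural cells and AST5, while the neuronal values lay above those of every type except microglia, whose highest value of 1.70% exceeded the lower neuronal one. Each type was also compared with AST1 to AST3 cells of the same plate. The median of AST4 cells was above that of AST1 to AST3 cells of the same plate on 18 of 18 plates, with ratios from 1.81 to 4.32 (median 2.46). Mural cells were higher on 30 of 30 plates (median ratio 1.86), endothelial cells on 19 of 19 (3.36), neuronal cells on 10 of 10 (4.91) and microglial cells on 9 of 10 (3.11). AST5 was higher on 17 of 17 plates (1.65) and oligodendrocytic cells on 9 of 9 (1.65). Many of these plate medians rest on 1 cell. There were 9 oligodendrocytic cells for 9 plates, 11 microglial for 10, 17 neuronal for 10 and 26 AST5 cells for 17. Each hippocampal suspension filled 8 plates, so the 18 AST4 plates include those of the Cortex 1 cells. Plates of the same suspension are not replicates.

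**Figure D1:**
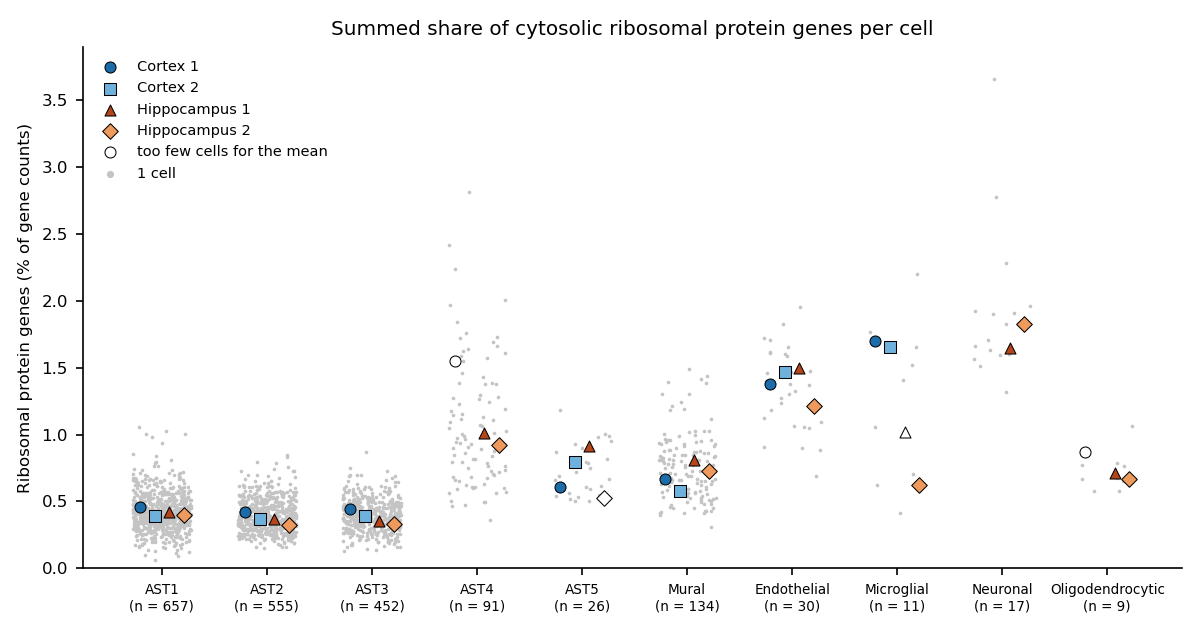
Share of the 82 ribosomal protein genes in gene counts (percent) for each authors' type, with 1 small grey point per cell and 1 larger symbol per suspension median (hollow where the cells were too few for the mean). The AST4 median lay at 1.01% and 0.925% in the hippocampal suspensions, and those of AST1 to AST3 lay between 0.324% and 0.455%.

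A share depends on all other genes of a cell, and the ERCC spike-in RNAs, added to every well in the same dilution, gave another denominator. Ribosomal protein counts per ERCC count, relative to AST1 to AST3, were 2.96 times as high in AST4, where all gene counts per ERCC count were 1.21 times as high. In neuronal cells the ratios were 4.99 and 1.03, in endothelial cells 3.20 and 0.913, and in microglial cells 2.39 and 0.753. In these types ribosomal protein counts were higher per spike-in too. Mural cells differed: their ribosomal protein counts per ERCC count were 1.12 times those of AST1 to AST3, while their gene counts per ERCC count were 0.621 times as high. AST5 lay between, with 1.43 and 0.727. Oligodendrocytic cells had 2.90 and 1.80, so that both quantities were higher. Taken singly, AST1, AST2 and AST3 had 0.965, 0.827 and 1.19 for ribosomal protein counts, so the mural 1.12 lay within their range. For all gene counts these 3 subtypes had 0.915, 0.881 and 1.18. The AST4, neuronal and oligodendrocytic ratios rest on 2 suspensions each. Microglial ribosomal protein counts per ERCC count varied, at 0.203 ± 0.0923 (mean ± SD, n = 3).

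**Figure D2:**
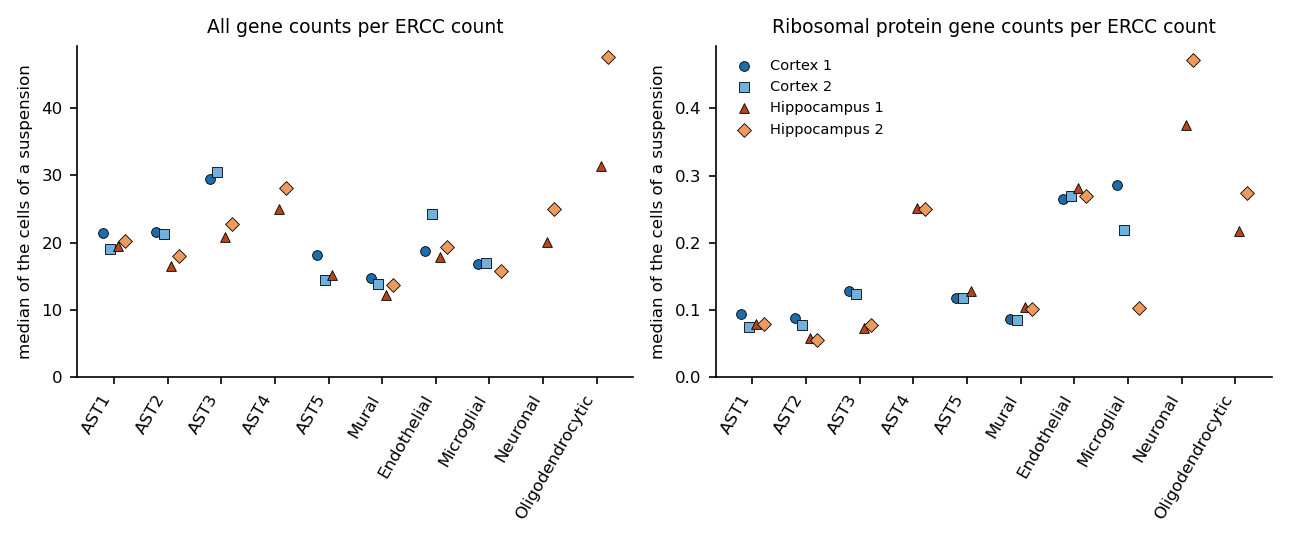
All gene counts per ERCC count (left) and ribosomal protein counts per ERCC count (right) in each type, 1 symbol per suspension at the median of its cells. Relative to AST1 to AST3 the mean in AST4 was 1.21 times as high on the left and 2.96 times on the right, and in mural cells 0.621 and 1.12 times.

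The number of ribosomal protein genes seen in a cell was higher in AST4, endothelial and neuronal cells than in AST1 to AST3, but the types did not stand in the order of the share. After thinning every cell to 50000 gene counts, the median cell had a count for 28.5 of the 82 genes in AST1, 24.6 in AST2 and 30.3 in AST3 (means of suspension medians), against 52.5 in AST4, 54.6 in endothelial and 63 in neuronal cells. Without thinning these were 33, 29.5, 36.5, 58.5, 62 and 68.8. In the thinned cells, oligodendrocytic cells had 51.3 genes, microglial 47.7, AST5 41.2 and mural cells 32.3. Genes of any kind also differed at this depth, with 1659 in AST1 to AST3, 1968 in AST4, 1860 in endothelial and 2132 in neuronal cells. Oligodendrocytic cells had 2082, microglial 1544, AST5 1266 and mural cells 1292. The part of this in the number of ribosomal protein genes was not tested. The balance between the subunits varied less than the sum: large-subunit genes supplied between 55.3% of the ribosomal protein counts, in endothelial cells, and 61.6%, in AST3.

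Within astrocytes the genes differed widely in level although nearly all of their products are present in equal numbers in a ribosome. In the summed counts of all astrocytes of a suspension, 78 of the 82 genes reached at least 1 CPM, 13 reached 100 CPM, and the 5 most abundant supplied 19.9% of the ribosomal protein counts. Detection was sparse, as the median gene had a count in 45.9% of astrocytes (39.3% after thinning) and 7 genes exceeded 60%, led by *Rpl41* with 78.2%. Levels between genes were compared per kilobase of the shortest principal transcript.

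*Rpl4*, whose protein lines the peptide exit tunnel of the large subunit, had the highest level of all. Its level was 306.9 CPM in Cortex 1, 285.3 in Cortex 2, 327.7 in Hippocampus 1 and 298.7 in Hippocampus 2 (304.6 ± 17.8 CPM, n = 4). Per length it had 198.1 ± 11.6 CPM per kb, next after *Rps14* of the small-subunit platform with 226.3 ± 18.4 CPM per kb (n = 4 each). *Rps9*, also of the small subunit, reached 174.3 ± 23.6 CPM per kb, *Rpl41*, which encodes the shortest protein of the ribosome, 162.6 ± 27.6, and *Rps27* 150.5 ± 36.6. Neighbours in this order differed by less than their SDs added together. Of the 75-base windows of the *Rps27* transcript, 98.5% occurred also in other genes. The paper took uniquely mapped reads from the alignment, so reads from such windows can be missing from its level. The size of this loss was not measured.

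At the other end, among genes of at least 1 CPM, *Rpl13a*, a large-subunit protein that also silences translation of inflammatory mRNAs, had 2.97 ± 0.627 CPM per kb and *Rpl24* had 3.94 ± 0.397. *Rpl35* and *Rpl23a*, neighbours at the exit of the peptide tunnel, had 10.1 ± 2.20 and 10.9 ± 0.916 CPM per kb. *Rpl13a* had a count in 21% of astrocytes and *Rpl24* in 44.8%, but its level was 2.67 ± 0.269 CPM, so most of those cells held few of its reads. Of their windows 56.3%, 80.9%, 89.2% and 81.7%, in the order named, were shared with other genes, so reads can be missing from their levels too. *Rps20* of the small-subunit head counted among the 5 lowest with 8.89 ± 1.00 CPM per kb because its only principal transcript is 3706 bases long, and by coding length it ranked 39. With coding length in place of exon length 4 of the 5 highest and 4 of the 5 lowest genes stayed in their group, and with the union of all exons 1 and 2 did. Over the 80 coding genes the share of shared windows ranged from 0% to 98.5% (median 50.1%). Its rank correlation with the level per length was 0.06, a description across genes that share libraries. This value does not measure how many reads a gene lost.

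**Figure D3:**
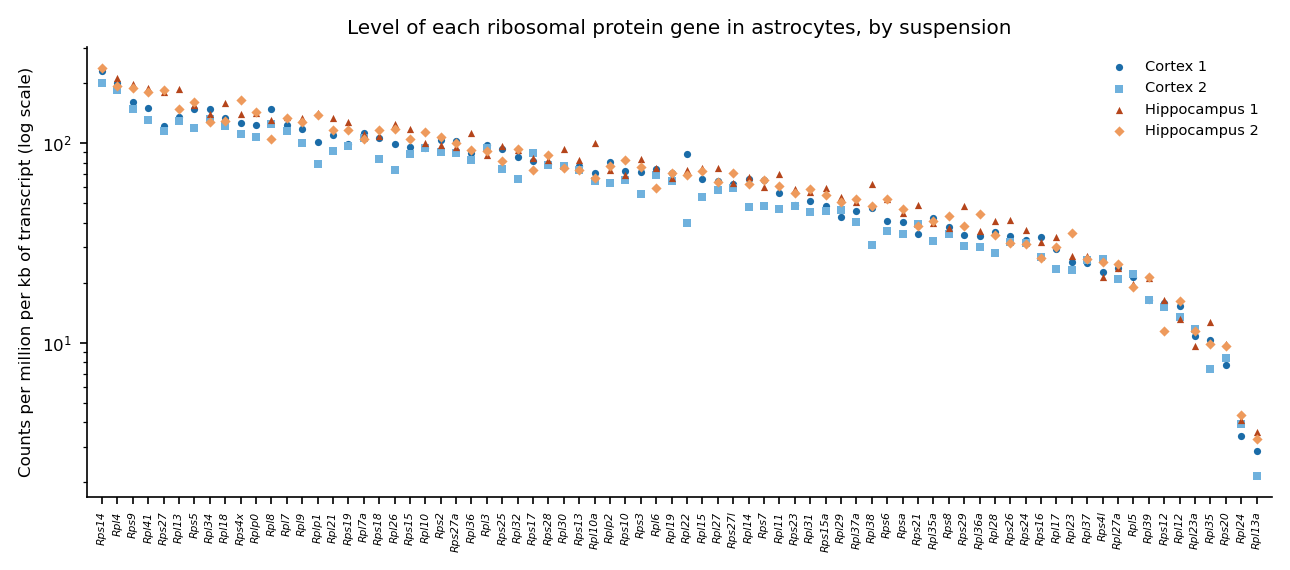
Level of each ribosomal protein gene in the summed astrocytes (CPM per kb of the shortest principal transcript, log axis) for genes reported here, one point for each of the 4 suspensions and genes in the order of their means. Levels run from *Rps14* at 226.3 CPM per kb to *Rpl13a* at 2.97 CPM per kb among genes of at least 1 CPM.

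Some paralogs were low or absent and others were near their partners in level. *Rpl10l* and *Rpl39l*, retrogenes known from the testis, had no count in any of the 1781 astrocytes, which allows a share of up to 0.168% of cells with a count, while *Rpl10* had one in 45.6% and *Rpl39* in 27.7%. *Rpl3l*, the striated muscle form of *Rpl3*, had a count in 5 astrocytes (0.281%) against 48.6% for *Rpl3*. *Rps27l*, a p53 target, was closer to its partner: 31.9 ± 2.49 CPM (63.99 ± 4.98 CPM per kb) against 51.9 ± 12.6 CPM (150.5 ± 36.6 CPM per kb) for *Rps27* (n = 4). *Rps4l* had 23.9 ± 2.22 CPM per kb in astrocytes and its partner *Rps4x*, carried on the X chromosome, 135.4 ± 22.5 CPM per kb. Windows shared with other genes made up 98.5% of *Rps27* and 12% of *Rps27l*, and 52.9% of *Rps4x* and 8.11% of *Rps4l*. Reads can thus be missing unequally from the partners, and the size of this loss was not measured. In mural cells *Rps4l* had 104.7, 121.1, 79.9 and 86.1 CPM, above every sum of AST1 to AST3, of which the highest was 37.3 CPM, and it had a count in 20.9% of mural cells and 7.41% of astrocytes. It was not high in mural cells alone: endothelial cells had 0.395, 65.4, 104.2 and 91 CPM, with a count in 33.3% of cells, and of 3 microglial sums 1 had 293.3 CPM and the others had no count. The fitted difference of mural cells from astrocytes had a wide error (log2 1.75, SE 2.32) and did not pass the test (adjusted p = 0.862, edgeR). The second gene annotated as a pseudogene, *Rpl6l*, had 0.510 ± 0.0674 CPM against 88.2 ± 8.83 CPM for *Rpl6*. Partners of the remaining pairs were both seen: a count was found in 18.6% of astrocytes for *Rpl22* and 31.4% for *Rpl22l1*, in 28.9% for *Rpl36a* and 25.4% for *Rpl36al*, and in 47.9% for *Rpl7* and 16.4% for *Rpl7l1*. Numbered pseudogenes of the family, named after 59 of the genes, added 1.44% to the summed level of the family.

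The order of levels between genes was similar in all types, while the size of the differences between types varied from gene to gene. The rank correlation of their mean levels with those in AST1, over 82 genes, was 0.98 in AST3, 0.96 in both AST2 and AST4, and 0.93 in AST5. It was 0.92 in mural, 0.91 in neuronal, 0.89 in endothelial, 0.88 in oligodendrocytic and 0.85 in microglial cells. It reflects the stable differences in level between genes and is not a test, and the sums of few cells are noisier. Over the 40 genes of at least 50 CPM, the log2 range of the mean level over types ran from 1.18 to 3.68 (median 2.61). The highest mean was in neuronal cells for 52 genes, in microglial cells for 13 and in endothelial cells for 7, and the lowest was in AST2 for 36 and in AST3 for 22. Among the genes of at least 50 CPM with the largest ranges over types were *Rps19*, *Rps7*, *Rpl9* and *Rpl3*.

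*Rps19*, needed to mature the small subunit and mutated in Diamond-Blackfan anaemia, had 611 and 595 CPM in neuronal cells. Its level was 357.98, 416.6, 422.8 and 285.8 CPM in endothelial cells, and 59.8, 57.8, 18.8 and 47.7 CPM in AST2. The 3 groups did not overlap. *Rps7* ranged from 291.6 CPM in neuronal to 30.6 CPM in oligodendrocytic cells, *Rpl9*, at the base of the large-subunit stalk, from 634 in neuronal cells to 69.4 in AST3, and *Rpl3*, next to the peptidyl transferase centre, from 812 in neuronal cells to 94.6 in AST2. *Rps9* was highest in microglial cells, at 907 ± 433 CPM (n = 3) against 525 CPM in neuronal cells.

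**Figure D4:**
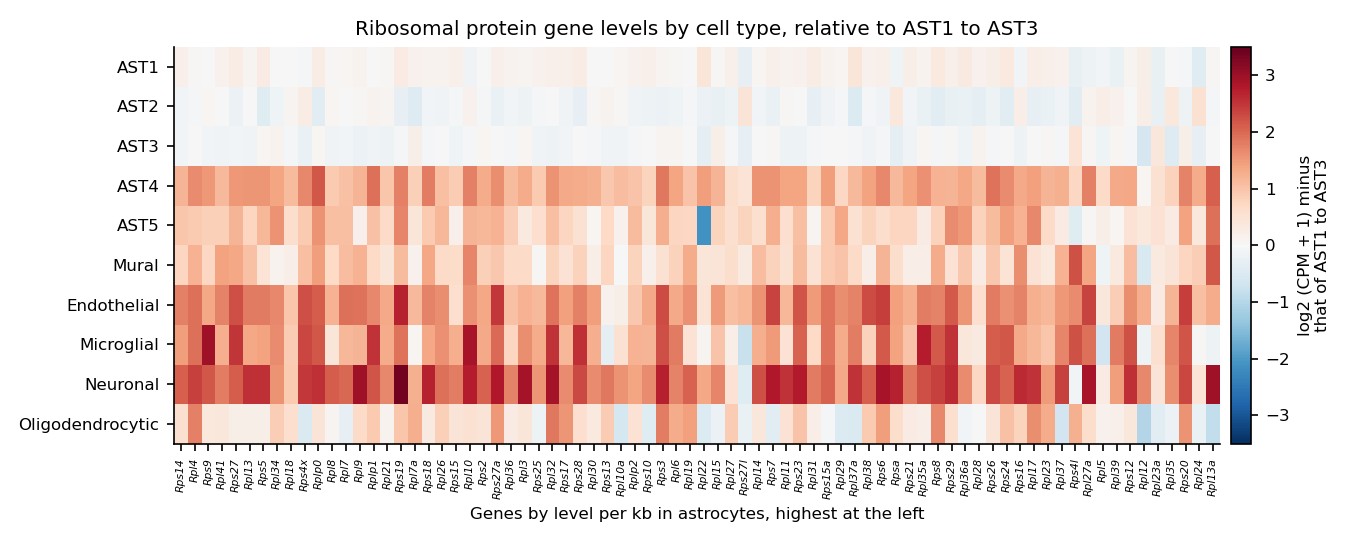
Mean level of each ribosomal protein gene in each type, as log2 (CPM + 1) minus that of AST1 to AST3, with reported genes of at least 1 CPM in the order of their level per kb in astrocytes. Most genes are higher (red) outside AST1 to AST3, with the highest mean in neuronal cells for 52 of the 82 genes, and in microglial cells for *Rps9*.

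The question of which single genes set a subtype apart was put to the summed counts of each subtype and suspension with edgeR's quasi-likelihood test, and 80 of the 82 genes were tested (the 2 others had no counts). In AST4 against the other astrocytes, 2 of 80 passed at an adjusted p under 0.05, both higher, where 0.636% of all 18233 genes passed in either direction. At an unadjusted p under 0.05 there were 28 of 80 against 7.82% of all genes, and with DESeq2 30 of 80 against 11.5%. Of the DESeq2 calls 29 were higher and 1 was lower, *Rpl3l*, which had no count in either AST4 sum. Of the 80 genes 78 had a positive log2 difference, with a median of 1.11 beside 0.05 over all genes tested. It was 1.02 over the large-subunit and 1.29 over the small-subunit genes, and all 32 small-subunit genes were positive.

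The 2 genes that passed were *Rplp0* and *Rpl4*. *Rplp0* (chr5:115559467-115563727, plus strand, GRCm38) encodes the stalk protein that anchors *Rplp1* and *Rplp2* and recruits elongation factors. Its level was 639 and 602 CPM in AST4 of Hippocampus 1 and 2, against 163.4 ± 20.3 in AST1, 103.7 ± 46.7 in AST2 and 142.9 ± 16.8 in AST3 (n = 4 each), without overlap. AST5 was the closest subtype, with 458.6, 394.8 and 366.96 CPM of *Rplp0*, below both AST4 values. Its log2 difference was 2.14 (SE 0.31, edgeR adjusted p = 0.0027). *Rpl4* (chr9:64173375-64178666, plus strand) had 944 and 781 CPM in AST4, against 280.2 ± 46.9 in AST1, 264.4 ± 43.4 in AST2 and 269.8 ± 48.0 in AST3, again without overlap (log2 difference 1.53, SE 0.20, edgeR adjusted p = 0.00108). AST5 had 414.8, 672.8 and 445.2 CPM of *Rpl4*, again the closest and below both AST4 values. Shared 75-base windows made up 27.4% of the *Rplp0* and 8.47% of the *Rpl4* transcript. *Rplp0* passed in 15 of 16 settings and *Rpl4* in 14 of 16. Leaving out Hippocampus 1 left *Rplp0* alone, and leaving out Hippocampus 2 left neither, each of these fits holding a single AST4 sum.

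The partners of *Rplp0* had smaller or less certain differences. *Rplp1* had 202.01 and 182.4 CPM in AST4 against 50.1 CPM in AST1 (log2 1.44, SE 0.51, edgeR adjusted p = 0.399). *Rplp2* had 53.5 ± 3.58 CPM against 29.2 ± 4.13 CPM in AST1, and *Rpsa*, the small-subunit protein known also as a laminin receptor, had 149.6 and 144.95 CPM against 60.3 CPM in AST1, with 1 AST2 sum at 142.5 CPM. Closer to the threshold stood *Rps4x* (log2 1.31, SE 0.31, edgeR adjusted p = 0.101), then *Rps3*, *Rpl3*, *Rps19* and *Rps14* with adjusted p between 0.139 and 0.177. These 5 were picked out here after their values were seen, and among them only *Rps3* falls outside the naming rule given below. With total counts in place of scaling factors all 5 passed, as did *Rplp0* and *Rpl4*, among 8 of 80 beside 0.691% of all genes. When sums needed at least 10 cells 16 genes passed (1.76% of all genes), and when cells with under 5% of reads outside exons were left out 16 passed (2.71% of all genes).

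**Figure D5:**
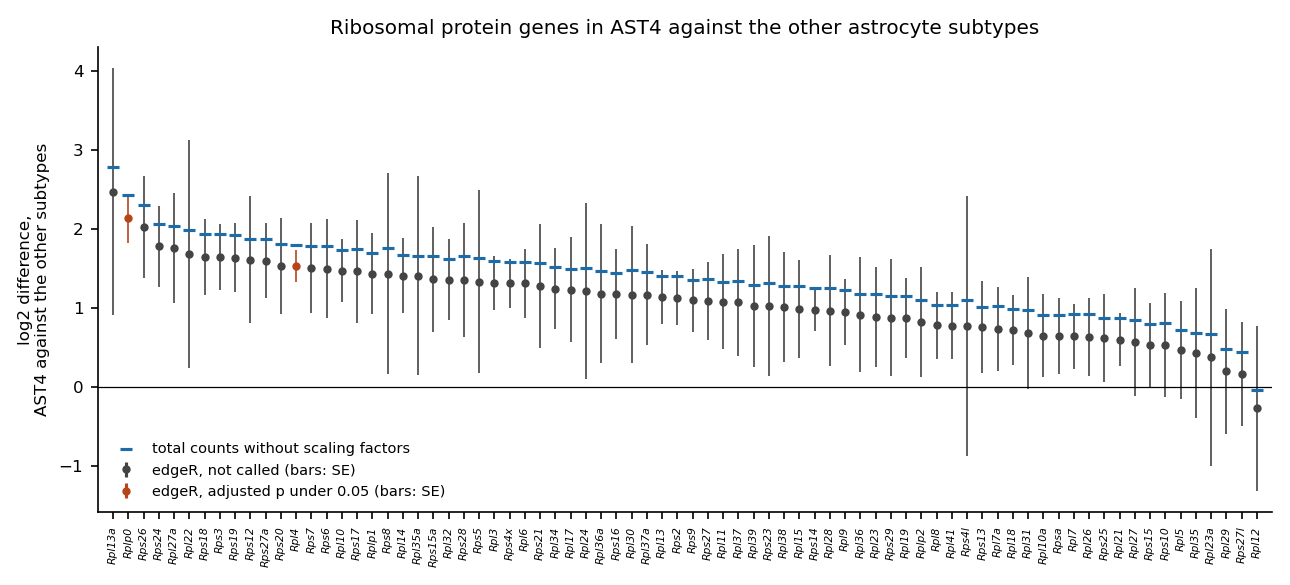
Log2 difference of AST4 from the other astrocytes for each reported ribosomal protein gene of at least 1 CPM, with its standard error from edgeR, and as a blue dash the value with total counts without scaling factors. Most genes lie near the family's median of 1.11, and *Rplp0* (2.14) and *Rpl4* (1.53) passed the test.

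No ribosomal protein gene passed in the other subtypes. In AST1 0 of 80 passed (0.0384% of all genes), 0 had an unadjusted p under 0.05 (4.29% of all genes) and 0 passed with DESeq2 (5.2% of all genes). In AST3 the counts were likewise 0, 0 and 0, beside 0%, 1.89% and 3.99% of all genes. In AST2 0 of 80 passed (0.0548% of all genes), 2 had an unadjusted p under 0.05 (2.62% of all genes) and 1 passed with DESeq2 (4.83% of all genes). The 2 were *Rplp0* (log2 -0.90, SE 0.27) and *Rps24* (log2 -1.01, SE 0.45), the latter named after its values were seen. Of the 80 differences 70 were negative with a median of -0.40, beside -0.14 for all genes. In AST5 0 of 80 passed where 17% of all genes did, 2 had an unadjusted p under 0.05 (28% of all genes) and 9 passed with DESeq2 (43.7% of all genes). The 2 were *Rplp0* (log2 0.72, SE 0.26) and *Rps19* (log2 0.90, SE 0.36). The AST5 median was 0.05, with -0.12 to 0.08 when each suspension was left out (negative without Cortex 2), while that of all genes was -4.55, where 51.1% of the genes tested had no count in any AST5 sum, against 3.38% in AST1. With total counts instead the family's median was 0.72 and 15 of 80 genes passed, beside 17.1% of all genes.

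The same limit held for the other brain cells, which were compared with the sum of all astrocytes of a suspension. Of 79 genes tested, none passed in mural, endothelial, microglial or neuronal cells, where 13.4%, 17.9%, 11.3% and 0.562% of all 16368 genes passed. At an unadjusted p under 0.05 there were 0 in mural cells (25.7% of all genes) and microglial cells (47.7% of all genes), 1 in endothelial cells (34.9% of all genes) and 2 in neuronal cells (24.1% of all genes). The neuronal ones were *Rps19* (log2 2.07, SE 0.92) and *Rpl9* (log2 1.87, SE 0.87). DESeq2 passed 2 genes in mural cells (20.4% of all genes), 19 in endothelial (30.4%), 18 in microglial (47.6%) and 16 in neuronal cells (25.8%). The medians of the family were -0.06 in mural, 0.44 in endothelial, -0.12 in microglial and 0.85 in neuronal cells. Those of all genes tested were -1.19, -2.41, -9.45 and -2.11, in the same order. With total counts the family's medians were 0.60, 1.41, 1.29 and 1.96, and all 79 differences were positive in endothelial cells. With total counts 3 genes passed in endothelial cells (13.2% of all genes) and 1 in microglial cells (5.65% of all genes). The direction in mural and microglial cells thus turned with the scaling, and the microglial median also with a single suspension, at 0.15 without Hippocampus 2 and -0.28 without Cortex 2. Of the genes tested, 57.3% had no count in the microglial sums, 36.4% in the neuronal, 32.6% in the endothelial and 19.2% in the mural sums, against 2.09% in the astrocyte sums. The rise in share reported above is a ratio of counts and rests on the unscaled totals.

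Between the areas the direction of the share differed between types and between ways of taking it. All astrocytes gave 0.438% and 0.387% in the cortical and 0.425% and 0.404% in the hippocampal suspensions, a difference of 0.0013 percentage points. A reverse transcription date was used only where each area had at least 5 cells of the type. Within the 10 dates used, the difference was negative in 2. Its direction rested on single suspensions, as leaving out each in turn gave -0.0242 to 0.0268. Taken in summed counts, the shares were 0.446% and 0.399% in cortex and 0.494% and 0.470% in hippocampus, without overlap and with a difference of 0.0593. In AST1 to AST3 cells alone this difference was -0.0083. The difference of hippocampus minus cortex was -0.0126 in AST1, where the areas overlapped and 3 of 10 dates gave a negative value (median 0.0112). Its sign turned with single suspensions, as leaving out each in turn gave -0.0433 to 0.0182. In AST3 it was -0.0724, as both hippocampal values, 0.355% and 0.333%, lay below the cortical 0.442% and 0.391%, and within dates it was negative in 9 of 10, with a median of -0.0553. In AST2 it was -0.0519, with the areas not overlapping but with 10 and 22 hippocampal cells and 1 date used (-0.0746). In mural cells it was 0.145 in the other direction, from 0.666% and 0.580% in cortex to 0.811% and 0.725% in hippocampus. It was also positive on the 2 dates that had enough mural cells of each area to be used. With 2 suspensions an area, an exact permutation test could not go below 0.333, so these differences are descriptions.

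Single genes showed no area difference past the threshold. In all astrocytes 0 of 80 passed with edgeR (0% of all 19160 genes), 9 had an unadjusted p under 0.05 (13.6% of all genes) and 5 passed with DESeq2 (10.3% of all genes). The 5 were *Rps27* (log2 0.64, SE 0.11), *Rplp1* (0.66, SE 0.16), *Rpl41* (0.43, SE 0.12), *Rps9* (0.35, SE 0.08) and *Rplp0* (0.34, SE 0.09), values from the edgeR fit and all higher in hippocampus. *Rplp1*, for example, had 50.8 and 39.1 CPM in cortex and 70.5 and 68.7 CPM in hippocampus, and *Rps27* had 42.2 and 39.9 against 62 and 63.6 CPM. Hippocampal astrocytes included the AST4 cells, which cortex nearly lacked. In AST1 to AST3 cells alone, an alternative added after seeing the data, 0 of 80 passed (0% of all genes), 2 had an unadjusted p under 0.05 (12.3% of all genes) and 53 were positive with a median of 0.09, where all astrocytes gave 70 positive genes and a median of 0.24. Within AST1 0 of 80 passed (0% of all genes) with a median of 0.00, within AST3 0 of 80 (0.00472% of all genes) with a median of -0.18. With each suspension left out in turn, the median was -0.06 to 0.11 in AST1 and -0.26 to -0.09 in AST3. For the difference between these 2 area effects 0 of 80 passed (0% of all genes). None of the 80 had an unadjusted p under 0.05 in these 3 comparisons, where 2.9%, 2.32% and 4.41% of all genes did, and none passed with DESeq2, where 6.63%, 4.6% and 6.53% did.

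Of the other lists of the translation machinery, 1 gene passed in AST4, where 0.636% of all genes passed and the median of all genes was 0.05. Of 8 elongation factors 1 passed, *Eef1a1*, which delivers aminoacyl-tRNA to the ribosome (log2 1.43, SE 0.27, edgeR adjusted p = 0.0237), and all 8 differences were positive with a median of 0.91. None of 25 initiation factors passed (median 0.49), none of 20 genes of ribosome assembly and rRNA transcription (median 0.80) and none of 77 mitochondrial ribosomal proteins (median -0.18). The 7 genes for cytosolic ribosomal proteins or paralogs whose names fall outside the rule, such as *Fau*, had a median of 0.88 and none passed. In AST5, where 17% of all genes passed, 1 of 8 elongation factor list genes, *Eef2k*, 6 of 20 assembly genes and 2 of 77 mitochondrial ribosomal protein genes were called lower, and 1 assembly gene and *Mrpl13* were called higher. The named ones among the lower calls, *Eef2k*, *Bop1*, *Rrp9*, *Polr1a*, *Mrpl47* and *Mrps23*, had no count in any AST5 sum. In microglial cells, where 11.3% of all genes passed, 2 of 25 initiation factors (*Eif3m* and *Eif3e*, neither with a count in a microglial sum), 4 of 20 assembly genes and 14 of 77 mitochondrial ribosomal proteins were called lower. In endothelial cells, where 17.9% of all genes passed, 2 of 20 assembly genes were called lower, *Polr1a*, which had no count there, and *Rrp9*. No gene of these lists passed in the other comparisons of types or areas. Markers of mural cells summed to 265.2 and 608.5 CPM in the AST4 sums, against 131.9 to 142.6 CPM in AST1, 75.8 to 142.9 in AST3, 1.47 to 288.1 in AST2 and at least 51897 CPM in mural cells. Neuronal markers had 70.6 and 8.56 CPM in AST4, against 3.03 to 9.79 in AST1, 0 to 26.6 in AST2, 12 to 29.8 in AST3 and at least 4034 CPM in neurons. The part of these transcripts in the AST4 values was not tested.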

How the data were processed

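The authors deposited whole-number gene counts per cell and a table of counts for all cells. Smart-seq2 reads were aligned to GRCm38.p5 with STAR 2.5.2b, uniquely mapped reads were taken, and HTSeq counted them per gene. No UMIs were used, so PCR copies were counted, and the limit given for a count of 0 covers counting error only. The per-cell counts were used. Of the 2031 columns of the table, 32 were compared with the files, and 1999 were not used. The 32 held the same gene count totals and the same counts of the 82 genes. One cell without a file was not analysed here. Types came from the authors' list.

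Counts were summed over the cells of a type in a suspension (at least 5 cells for subtypes, 3 for other types). Levels are CPM of these sums without scaling. Comparisons used edgeR 4.0.16 (TMM, filterByExpr, robust quasi-likelihood test, Benjamini-Hochberg adjusted p under 0.05) in R 4.3.3 over all genes. Fits of types held a term for brain area. A subtype was set against the other subtypes weighted by their cell numbers. The AST4 and neuronal sums were all hippocampal, so their differences rest on an area term estimated from other types. Alternatives were a term for the suspension, DESeq2 1.42.0, other scalings, filters and cell minimums. SE is the absolute log2 difference divided by the square root of F. Fits were tested on simulated data. P-values measure the spread between suspensions of 1 or a few litters. Transcript lengths and shared windows were from a GENCODE annotation of GRCm38.

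Genes were named by rule, apart from those said above or below to be named after their values were seen. The rule took called genes, the 5 highest and lowest per length, the 5 with the largest range over types, paralog pairs, and *Rplp0*, *Rplp1*, *Rplp2* and *Rpsa*. These genes and the other lists were chosen with earlier results of these data known. Some single genes are not reported here, in the text or figures, and stayed in the counts, medians and fits.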

Additional observations from a re-analysis of the deposited data

Results flagged for a closer look

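The difference of hippocampus minus cortex in the summed share was -0.0519 percentage points in AST2 and -0.0724 in AST3, but 0.145 in mural cells. In each of these types both hippocampal suspensions lay on one side of both cortical ones, in opposite directions for the astrocyte subtypes and the mural cells. Leaving out each suspension in turn gave -0.0786 to -0.0253 in AST2, -0.0981 to -0.0467 in AST3 and 0.102 to 0.188 in mural cells. Taken in summed counts the differences were -0.0384, -0.0622 and 0.0925, and AST2 then overlapped, with 0.393% in Hippocampus 1 above 0.386% in Cortex 2. The difference between these area effects was not tested.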

How the results depend on the processing

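The number of ribosomal protein genes called depended on the tool and the scaling. Over 16 settings the fitted log2 difference in AST4 changed sign in *Rps27l* (-0.16 to 0.44) and *Rpl12* (-0.68 to 1.17), the latter named after its values were seen. DESeq2 called 1 in AST2 (4.83% of all genes), 30 in AST4 (11.5%), 9 in AST5 (43.7%), 2 in mural (20.4%), 19 in endothelial (30.4%), 18 in microglial (47.6%) and 16 in neuronal cells (25.8%) and 5 between the areas (10.3%). Total counts without scaling factors, an alternative chosen after seeing the data, gave 8 in AST4 (0.691% of all genes), 15 in AST5 (17.1%), 3 in endothelial (13.2%) and 1 in microglial cells (5.65%). RLE size factors gave 2 in AST5 (16.7% of all genes) and 1 in endothelial cells (16.6%). Equal weights for the other subtypes gave 2 in AST2 (5.25%) and 5 in AST4 (2.82%). Sums of at least 10 cells gave 16 in AST4 (1.76%) and 1 in AST5 (11.2%), which then had a single sum, assumed to vary like the other groups, and sums of at least 5 cells gave 4 in endothelial (5.61%) and 1 in neuronal cells (2.86%). Cells with at least 5% of reads outside exons gave 16 in AST4 (2.71%) and 1 in endothelial cells (18.7%), with no AST5 cell left. Thinned cells gave *Rps3* beside *Rplp0* and *Rpl4* in AST4 (share of all genes not given here), and 1 gene in AST5 (22.9%). Leaving out each suspension in turn gave 0 to 2 in AST4 (1 without Hippocampus 1, beside 0.519% of all genes, and 0 without Hippocampus 2, beside 0.0846%), 0 to 1 in AST5 (1 without Cortex 2, beside 8.53%, and 1 without Hippocampus 1, beside 12.4%) and 0 to 1 in microglial cells (1 without Cortex 2, beside 3.85%). The causes were not tested. The share taken in summed counts was 1.07% in AST4, 1.93% in neuronal cells and 0.452% in all astrocytes, the area difference in all astrocytes in summed counts was 0.0593 percentage points, and the mural area difference within 2 dates was 0.227 percentage points.

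A term for the suspension as a replicate block, which pairs types of the same animals, left *Rplp0* and *Rpl4* called in AST4 and 0 genes in each other comparison of types. Between areas the suspensions share only a number: deviations of same-numbered suspensions correlated at 0.0136 over 8810 genes, and the block called 0 genes there. The shares of all genes called in these block fits are not given here, so the counts cannot be weighed against them.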

Other observations

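Cells that entered no comparison were also measured. The 15 cells that the authors' list left without a type had a ribosomal protein share of 0.167% to 1.11% (median 0.523%), and 13 of them had under 5% of reads outside exons. The 33 cells absent from the list had 0.172% to 0.785% (median 0.435%), and 1 of them had under 5% of reads outside exons. Among AST1 to AST3 cells, the 25 with under 5% of reads outside exons had a median share of 0.496%, and the other 1639 had 0.396%. For comparison, the AST5 cells, which all had under 5%, had suspension medians between 0.605% and 0.913% in the 3 suspensions of at least 5 cells, and 0.526% in the 2 cells of Hippocampus 2.

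Over the 1664 AST1 to AST3 cells the rank correlation of the share was 0.27 with the number of genes detected, 0.09 with total gene counts and -0.11 with the percentage of reads outside exons. Over the 91 AST4 cells it was 0.09 with the genes detected and 0.02 with total counts. These are descriptions over cells of shared suspensions.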
